A study of Mus musculus with 8 samples.

Results

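Genes of glucose use and of the response to low oxygen, 40 in all, were followed in Kupffer cells, which are liver-resident macrophages. They comprise glucose and lactate transporters, the glycolytic enzymes with their isozymes, the fate of pyruvate, the hypoxia-inducible factors (HIF) with some of their targets, and the pentose phosphate enzymes. The members were chosen by gene symbol, and all 40 of the 40 symbols were found among the 56691 genes of the deposited table. All 40 also passed the filter on low counts that left 15870 tested genes. The cells came from livers with metastases of B16F10, a mouse melanoma line, 7 days after the tumour cells had been injected. One group of 4 libraries was from wild-type (WT) mice and the other group of 4 from Vsig4 knockout (KO) mice, and both groups carried tumours. Vsig4 encodes a complement receptor of tissue macrophages. Live cells carrying CD45, found on leukocytes, and Tim-4, found on Kupffer cells, were sorted for bulk RNA-seq. Strain, age, how the knockout was made and whether animals were pooled are not stated in the labels. Whether each library is a different animal is also not stated, so p-values measure only the spread between libraries, which may be technical.

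Glycolysis splits glucose into pyruvate in the cytosol and yields ATP without oxygen. Lactate dehydrogenase turns pyruvate into lactate, which leaves the cell through monocarboxylate transporters, while the pentose phosphate pathway diverts glucose 6-phosphate to make NADPH and ribose. Under low oxygen the HIF alpha subunits escape prolyl hydroxylation, enter the nucleus and raise many glycolytic genes, and in activated macrophages and in tumours these genes are known to be raised as well. Several steps have isozymes encoded by separate genes, which differ between cell types. Hexokinase 3 is known from myeloid cells, the B subunit of lactate dehydrogenase from tissues that oxidise lactate and from many tumours.

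Libraries held 15264043 to 19513844 counts, and mitochondrially encoded genes took 4.07% to 8.16% of them. Counts of Vsig4 ran from 22498 to 46735 in WT and from 2 to 9 in KO (log2 fold change -12.89 ± 0.531, edgeR adjusted p = 5.35e-05), in the direction of the labels. All 10 Kupffer cell markers were detected in all 8 libraries and summed to 16115 to 27984 CPM (counts scaled to library size) in WT and 6139.8 to 19080.1 CPM in KO, with KO 3 lowest. All 10 melanoma markers, among them the pigment genes Pmel, Tyrp1 and Dct, were likewise detected in all 8 libraries. Their sum was 475.4, 405.4, 5379.2 and 4601.2 CPM in WT 1 to 4 and 2381.5, 3399.6, 12106.5 and 6303.9 CPM in KO 1 to 4 (2-sided exact permutation test, p = 0.286). The melanoma score, the mean log2 CPM of these genes, was 4.22, 3.69, 7.59 and 7.39 for WT 1 to 4. For KO 1 to 4 it was 6.37, 6.88, 8.77 and 7.83. WT 1 and WT 2 thus stood apart at the low end and KO 3 was highest. In bulk samples, fewer cells of a type and less RNA per cell cannot be told apart, and this holds for both marker lists.

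No member passed the test of KO against WT. In edgeR's quasi-likelihood test 0 of 40 members had an adjusted p under 0.05, against 0.00630% of all tested genes, which is Vsig4 alone. At an unadjusted p under 0.05 it was 1 of 40 members, higher in KO, against 8.78% of all genes (4.23% higher and 4.56% lower), and DESeq2 and limma also called 0 members. The FPKM values (fragments per kilobase of exon, scaled to library size) of the genotypes overlapped for every member, while they did not overlap in 5.35% of tested genes. The log2 fold change was above 0 in 29 members and below 0 in 11, with a median of 0.22 beside -0.0028 over all tested genes. Without KO 3 the median was 0.028 and without WT 3 it was 0.36. With the replicate number as a block, 12 members were higher and 1 was lower in KO, against 8.98% and 5.01% of all genes. The labels do not state such a pairing. Without pair 1, 2, 3 and 4 the block gave 1, 0, 0 and 14 members, beside 1.29%, 0.0126%, 0.00627% and 14.0% of all genes. With the melanoma score as a covariate 0 of 40 passed, against 0.00630% of all genes, and the median was 0.0039. Vegfa, Bnip3 and P4ha1 had an unadjusted p under 0.05 there. The share of all genes at that threshold was not counted in this fit, so no excess can be read from them.

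The slope of each gene on the melanoma score was then fitted in one model with the genotype. Along the score 21 of 40 members rose and 5 fell, against 21.0% and 14.5% of all tested genes. The median slope was 0.20 on the log2 scale per unit of score, beside 0.0011 over all genes, where 1 unit is a doubling of the melanoma genes. Without WT 1, WT 2 and KO 3, left out after seeing the data, 13 members rose and 1 fell, against calls in 12.0% of all genes. By role the median slope was 0.40 for the triose and lower steps, 0.25 for lactate and pyruvate fate, 0.20 for HIF and targets, 0.17 for the hexose steps, 0.070 for glucose transport and -0.13 for the pentose phosphate enzymes. All 7 members of the triose and lower steps rose, and none of the 4 pentose phosphate members did. With the replicate number as a further block only 2 degrees of freedom remained, and of the members only Ldhb passed (0.78 ± 0.110, adjusted p = 0.0145), beside 1.04% of all genes. A gene's level and the score both derive from 1 library's counts. The Kupffer sum was lowest where the score was highest, and the proliferation markers, at 187 to 631 CPM in WT and 461 to 1233 CPM in KO, were also highest in KO 3. The part of either list in these slopes was not tested.

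**Figure D1:**
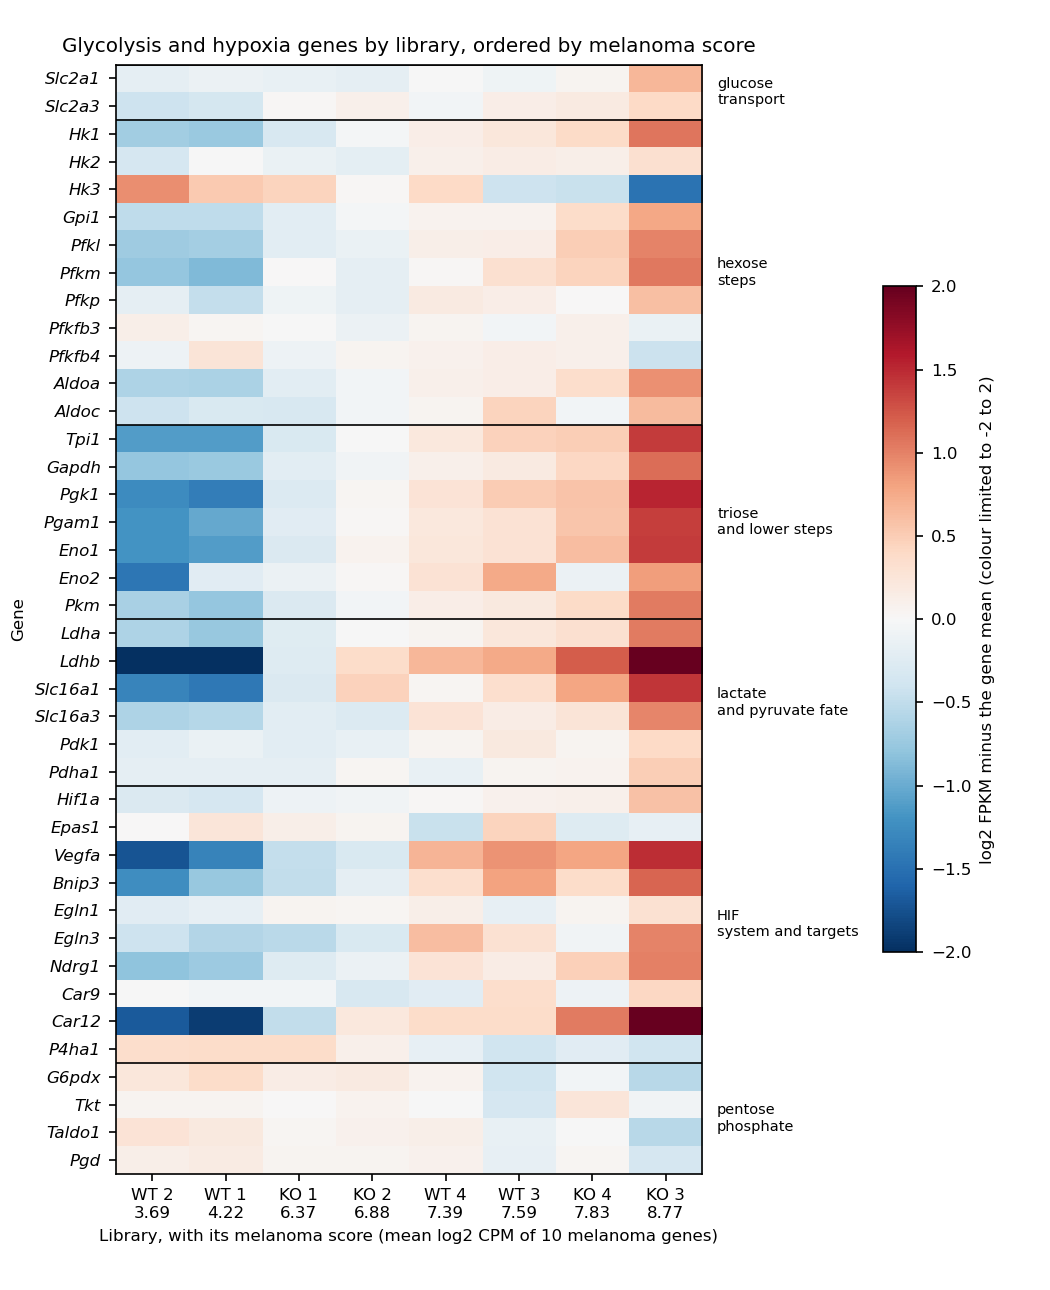
Colour shows log2 FPKM minus the mean of the gene, for 40 genes (rows, grouped by role) in 8 libraries (columns, ordered by melanoma score, which is printed under each name). Most glycolytic rows run from blue in WT 2 and WT 1 to red in KO 3, while Hk3, P4ha1, G6pdx and Taldo1 run the other way.

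**Figure D2:**
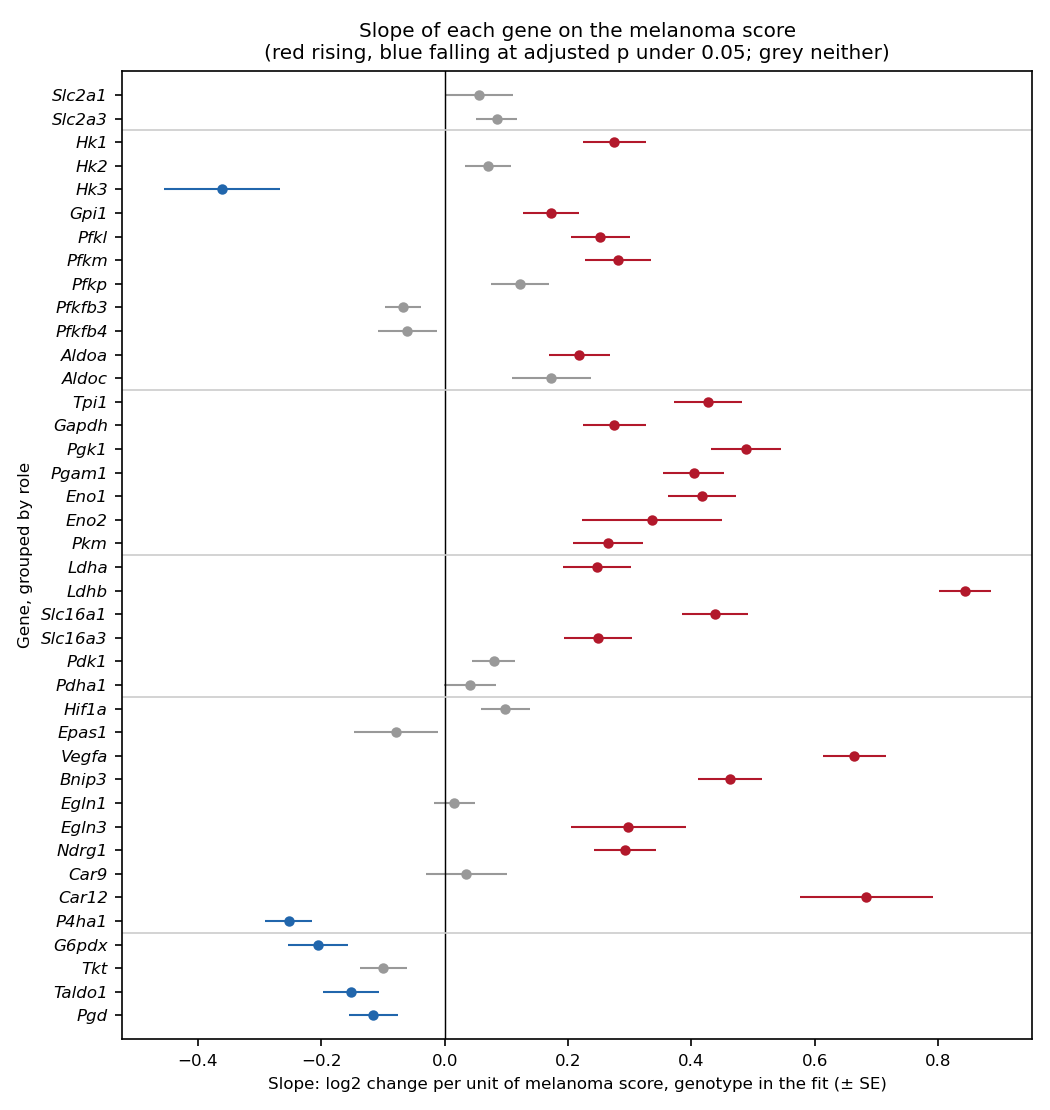
Points are slopes on the melanoma score for 40 genes (vertical axis), in log2 change per unit of score with the genotype in the fit (horizontal axis), and bars are SEs. The 21 red points rose, the 5 blue points fell and the grey points did not pass; Ldhb lies farthest to the right at 0.84.

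Promoters of the genes that carry these opposite slopes are shown with the core letters of the HIF response element. RefSeq sequences (GRCm38.p6) were found for 37 of 40 members, and Epas1, Ndrg1 and Slc2a3 had no entry. The 250 bases before each start were searched on both strands for ACGTG and GCGTG. The palindrome CACGTG holds ACGTG on both strands and was counted on each. ACGTG was present for 19 of 37 members (51.4%), for 24.6% of the 11116 tested genes with an entry and for 18.5% of all 27025 genes with an entry. Either motif was present for 33 of 37 members (89.2%), for 59.1% of tested genes and for 41.5% of all genes. These sets were not matched on base composition, and a gene with several starts counted if any of them held a match. ACGTG was held by 11 of 20 members that rose, 2 of 5 that fell and 6 of 12 that did neither. Either motif was held by 16 of 20, 5 of 5 and 12 of 12. Below, capitals mark either motif. Ldha (chr7:46845554-46845803, plus strand) and Pgk1 (chrX:106186850-106187099, plus strand) rose, as did Ldhb (chr6:142507958-142508207, minus strand), whereas Hk3 (chr13:55021386-55021635, minus strand) and P4ha1 (chr10:59323046-59323295, plus strand) fell. A match describes letters and not a bound site.
Ldha: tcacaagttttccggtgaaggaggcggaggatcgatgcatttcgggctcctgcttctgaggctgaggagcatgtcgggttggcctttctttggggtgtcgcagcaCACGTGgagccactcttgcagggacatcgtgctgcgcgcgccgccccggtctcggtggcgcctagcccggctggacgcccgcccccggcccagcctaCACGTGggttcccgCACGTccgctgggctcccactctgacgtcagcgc
Pgk1: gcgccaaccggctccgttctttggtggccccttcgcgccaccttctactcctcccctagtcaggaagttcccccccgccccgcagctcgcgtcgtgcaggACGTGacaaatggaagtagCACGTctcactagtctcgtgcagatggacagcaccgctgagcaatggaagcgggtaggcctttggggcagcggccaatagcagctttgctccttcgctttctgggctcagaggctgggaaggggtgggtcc
Ldhb: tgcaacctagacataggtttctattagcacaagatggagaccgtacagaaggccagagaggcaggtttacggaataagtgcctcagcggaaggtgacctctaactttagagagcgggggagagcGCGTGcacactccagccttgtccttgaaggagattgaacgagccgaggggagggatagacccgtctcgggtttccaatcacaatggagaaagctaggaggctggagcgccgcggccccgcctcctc
Hk3: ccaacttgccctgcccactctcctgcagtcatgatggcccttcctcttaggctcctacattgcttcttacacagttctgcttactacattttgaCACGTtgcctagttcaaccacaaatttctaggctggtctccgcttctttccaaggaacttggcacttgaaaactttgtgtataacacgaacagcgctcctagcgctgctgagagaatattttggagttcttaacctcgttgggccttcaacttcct
P4ha1: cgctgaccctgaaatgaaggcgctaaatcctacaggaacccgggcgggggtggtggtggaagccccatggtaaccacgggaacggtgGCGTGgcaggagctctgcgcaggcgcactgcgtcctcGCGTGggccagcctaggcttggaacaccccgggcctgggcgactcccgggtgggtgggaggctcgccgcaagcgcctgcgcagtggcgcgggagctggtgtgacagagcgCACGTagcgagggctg
Ldha has 5 matches of ACGTG in this window and Pgk1 has 2. Ldha has another start in the table, whose window holds 0 ACGTG and 1 GCGTG, and the start with the most matches is shown. The bases just after each start were looked for near the beginning of the gene's GENCODE M21 transcripts. They were found for 40 of 52 starts, among them the other Ldha start but not the Ldha start shown. All 52 starts entered the counts above. Ldhb, with the steepest slope of all members, has no ACGTG and 1 GCGTG, while Hk3 has 1 ACGTG and P4ha1 has 1 ACGTG and 2 GCGTG.

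Glucose enters macrophages mainly through the transporters encoded by Slc2a1 (GLUT1) and Slc2a3 (GLUT3), and neither passed a test. Slc2a1 had 8.11, 7.76, 8.31 and 8.70 FPKM in WT 1 to 4 and 7.92, 7.76, 13.9 and 9.13 FPKM in KO 1 to 4. KO 3 was high and the other 7 libraries lay close together. Slc2a3 was present at 2.58, 2.46, 3.61 and 3.16 FPKM in WT 1 to 4 and 3.33, 3.54, 4.36 and 3.71 FPKM in KO 1 to 4, with overlapping genotypes. Neither slope passed (adjusted p = 0.453 and 0.0696). Slc2a1 made up 73.7% ± 2.93 for WT against 71.6% ± 3.19 for KO of the summed FPKM of this pair (exact permutation test, p = 0.400, or 0.464 adjusted over 13 shares).

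The hexokinases, which phosphorylate glucose on entry, showed the clearest exchange of isozymes among the hexose steps. Hk3 (ENSMUSG00000025877, chromosome 13, 55153798 to 55169198, minus strand by the authors' table, with no build assigned) had 102, 136, 53.4 and 94.2 FPKM in WT 1 to 4 and 97.1, 72.5, 25.7 and 52.6 FPKM in KO 1 to 4. It was highest in WT 2 and lowest in KO 3, and the genotypes overlapped. Hk3 fell along the melanoma score by 0.36 ± 0.0943 on the log2 scale per unit (edgeR adjusted p = 0.0164). The KO minus WT difference was -0.73 ± 0.442 without the block (adjusted p = 0.492), -0.81 ± 0.162 with it (adjusted p = 0.0278), -0.47 without KO 3 and -0.16 ± 0.286 with the melanoma covariate (adjusted p = 0.954).

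Hk1, the widely expressed hexokinase, took the opposite course. It had 7.94, 8.18, 15.5 and 14.6 FPKM in WT 1 to 4 and 10.6, 12.99, 27.8 and 17.3 FPKM in KO 1 to 4, lowest in WT 1 and WT 2 and highest in KO 3. Hk1 rose with the score (0.27 ± 0.0512, adjusted p = 0.00351), and its difference between genotypes was 0.49 ± 0.308 (adjusted p = 0.493; 0.46 ± 0.116, adjusted p = 0.0417 with the block; 0.18 without KO 3). Hk2, the inducible hexokinase of muscle, fat and tumours, lay between 16.3 and 25.7 FPKM, and its slope did not pass (adjusted p = 0.164).

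As a share of the 3 hexokinases, Hk3 made up 78.2, 84.7, 58.2 and 71.97% in libraries WT 1 to 4, compared for KO 1 to 4 with 76.7, 70.0, 32.4 and 57.0%. In FPKM it was the main hexokinase transcript in 7 of 8 libraries, and in KO 3 all 3 were nearly level. These levels rest on the deposited exonic sizes of 8532, 5969 and 3682 bases for Hk1, Hk2 and Hk3. In counts they were not level in KO 3, at 4034, 2610 and 1609. The FPKM share of Hk3 fell with the score (Pearson r = -0.831 with permutation p = 0.00796, 0.0215 adjusted, and Spearman rho = -0.976 with p = 0.000397, 0.00258 adjusted). Over the 6 libraries other than WT 1 and WT 2 it was r = -0.943 (adjusted p = 0.0301). The share of Hk2 rose (Pearson r = 0.836 with permutation p = 0.00826, 0.0215 adjusted, and Spearman rho = 0.929 with p = 0.00223, 0.00967 adjusted; r = 0.939 over the 6 libraries, adjusted p = 0.0301). Between genotypes the Hk3 share was 73.3% ± 11.3 for WT against 59.0% ± 19.5 for KO (n = 4 each, exact permutation test, p = 0.229, or 0.330 adjusted).

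Hk3 followed the Kupffer markers closely across libraries. Per 100 CPM of the summed Kupffer list, Hk3 had 1.47, 1.95, 1.19 and 1.85 CPM in WT 1 to 4 and 1.90, 1.40, 1.45 and 1.24 CPM in KO 1 to 4. The coefficient of variation over 8 libraries was 19.3% for this ratio and 48.9% for Hk3 in CPM, and Hk3 was the only one of 40 members that varied least on this scale. The ratio did not separate the genotypes (WT 1.61 ± 0.350 and KO 1.499 ± 0.282, p = 0.686 in an exact permutation test of log2 ratios).

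Phosphofructokinase commits the sugar to glycolysis, and its liver, muscle and platelet type subunits are encoded by Pfkl, Pfkm and Pfkp. Pfkl had 7.48, 7.26, 13.2 and 12.9 FPKM in WT 1 to 4 and 10.3, 10.9, 23.8 and 16.7 FPKM in KO 1 to 4 and Pfkm had 2.84, 3.08, 6.54 and 5.31 FPKM in WT 1 to 4 and 5.26, 4.65, 10.9 and 7.14 FPKM in KO 1 to 4. Both rose with the score (0.25 ± 0.0478 and 0.28 ± 0.0536, adjusted p = 0.00387 and 0.00397), and both were higher in KO with the block only (adjusted p = 0.0300 and 0.0299). Pfkp, with 6.47, 7.93, 9.90 and 10.2 FPKM in WT 1 to 4 and 8.46, 7.95, 13.8 and 9.07 FPKM in KO 1 to 4, had no slope that passed (adjusted p = 0.0686). Its share of the family ran from 27.6% in KO 4 to 43.4% in WT 2. That share declined along the score while the Pfkl share increased (r = -0.900 and r = 0.770, permutation p = 0.00310 and 0.0248, adjusted p = 0.0202 and 0.0460). Without WT 1 and WT 2 these were r = -0.756 and r = 0.724 (adjusted p = 0.163 for both).

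The other hexose steps were moderate. Gpi1, the phosphoglucose isomerase, and Aldoa, the main aldolase, rose with the score (0.17 ± 0.0454 and 0.22 ± 0.0495, adjusted p = 0.0169 and 0.00900). Aldoa had 144, 146, 243 and 240.1 FPKM in WT 1 to 4 and 192, 216, 419 and 285 FPKM in KO 1 to 4. Aldoc, the brain-type aldolase, was at 1.51 to 3.12 FPKM and made up 0.668% to 1.12% of the aldolase pair. Pfkfb3 and Pfkfb4, which set the level of the phosphofructokinase activator fructose 2,6-bisphosphate, did not pass: Pfkfb3 stayed between 6.29 and 7.50 FPKM and Pfkfb4 between 4.38 and 7.06 FPKM. The adjusted p of their slopes was 0.0920 and 0.345.

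All triose and lower steps rose with the score. Pgk1, the phosphoglycerate kinase that makes the first ATP of the pathway, had 85.8, 93.9, 319.8 and 272 FPKM in WT 1 to 4 and 185, 231, 647 and 332 FPKM in KO 1 to 4. Tpi1, the triosephosphate isomerase, had 70.4, 70.4, 210.2 and 178 FPKM in WT 1 to 4 and 124, 152, 401 and 214 FPKM in KO 1 to 4. In both the order of libraries was nearly that of the melanoma score, with WT 1 and WT 2 lowest and KO 3 highest. The slopes were 0.49 ± 0.0565 for Pgk1 and 0.43 ± 0.0549 for Tpi1 (adjusted p = 0.000196 and 0.000389). The highest library was 7.55 times the lowest for Pgk1 and 5.70 times for Tpi1.

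Pgam1, the phosphoglycerate mutase, and Eno1, the common enolase, followed. Eno1 had 80.3, 76.3, 214 and 204 FPKM in WT 1 to 4 and 144, 184, 463 and 269 FPKM in KO 1 to 4, and Pgam1 33.3 to 199 FPKM. They rose by 0.40 ± 0.0492 and 0.42 ± 0.0547 per unit (adjusted p = 0.000278 and 0.000447). Eno2, the neuronal enolase, was at 0.120 to 0.580 FPKM and rose as well (0.34 ± 0.114, adjusted p = 0.0436), but made up at most 0.347% of enolase FPKM. Pkm, the pyruvate kinase whose 2 splice forms cannot be told apart in gene counts, had 126, 138, 249 and 238 FPKM in WT 1 to 4 and 176, 209, 445 and 283 FPKM in KO 1 to 4 and a slope of 0.26 ± 0.0571 (adjusted p = 0.00720).

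Gapdh, often used as a reference gene, was not level. It had 20.2, 19.9, 38.3 and 36.3 FPKM in WT 1 to 4 and 29.2, 32.5, 73.6 and 45.4 FPKM in KO 1 to 4 and rose with the score (0.28 ± 0.0514, adjusted p = 0.00357). Per length it lay below its neighbours in the pathway, Tpi1 and Pgk1, in every library. The table lists 24 pseudogenes or related copies whose symbols are formed from those of these enzymes, 12 of them with counts. The most abundant of them was Eno1b with 1401 counts over all libraries. Copies under other symbols were not counted. Reads shared with such copies make the levels of Gapdh, Eno1, Pgam1, Pgk1, Tpi1 and Ldha uncertain.

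In the KO minus WT comparison Pgk1, Tpi1, Pgam1, Eno1 and Gapdh had log2 fold changes of 0.79 ± 0.506, 0.68 ± 0.448, 0.77 ± 0.417, 0.81 ± 0.442 and 0.57 ± 0.309 (edgeR adjusted p = 0.492 to 0.497). Without KO 3 they were 0.33, 0.26, 0.38, 0.42 and 0.26. With the block all 5 were higher in KO (adjusted p = 0.0257 to 0.0306). With the melanoma covariate they were at -0.0037 ± 0.194, -0.039 ± 0.190, 0.087 ± 0.170, 0.10 ± 0.189 and 0.075 ± 0.179 (adjusted p = 0.956 to 0.998).

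**Figure D3:**
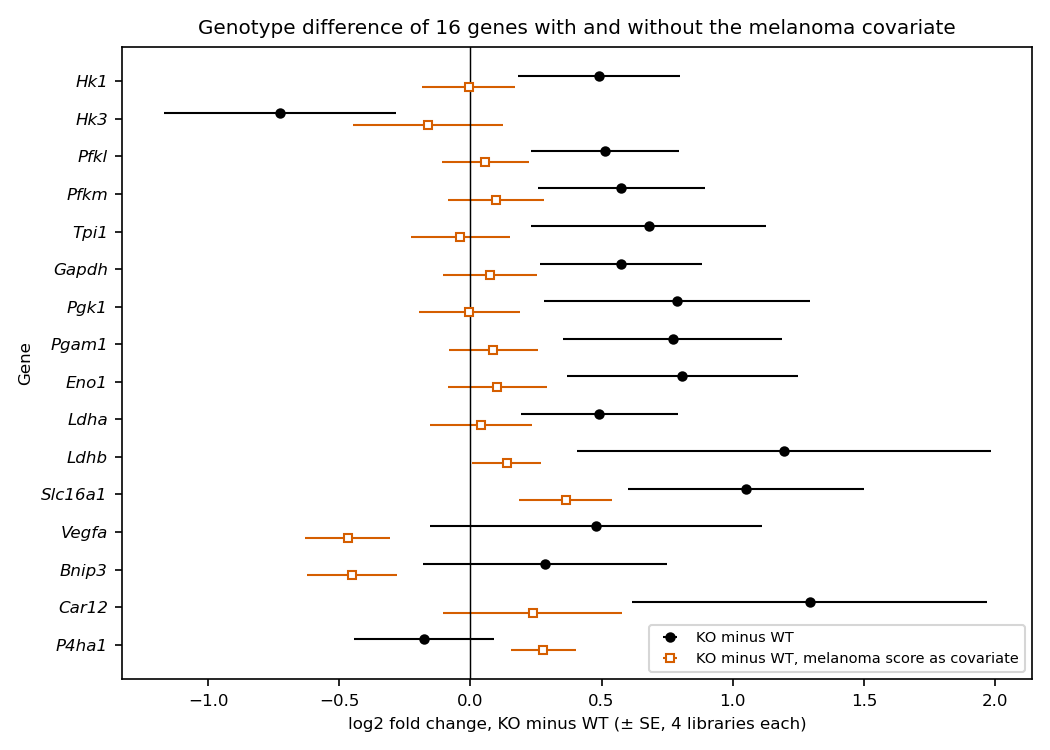
Log2 fold changes, KO minus WT, with SE for 16 genes (vertical axis) from 4 libraries of each genotype. Filled circles are without and open squares with the melanoma score as a covariate; the squares of the glycolytic enzymes lie close to 0, and those of Vegfa and Bnip3 lie below it.

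Lactate metabolism held the widest range. Ldhb (ENSMUSG00000030246, chromosome 6, 142435975 to 142453683, minus strand by the same table), the B subunit of lactate dehydrogenase, had 7.30, 7.60, 67.0 and 62.7 FPKM in WT 1 to 4 and 33.1, 51.0, 167 and 92.0 FPKM in KO 1 to 4. WT 1 and WT 2 were far below the other 6 libraries, which followed the order of the melanoma score. Ldhb rose by 0.84 ± 0.0421 per unit of score (edgeR adjusted p = 6.06e-07), the steepest slope of the 40 members. Its genotype difference was 1.20 ± 0.788 (adjusted p = 0.497), 1.57 ± 0.312 with the block (adjusted p = 0.0273), 0.68 without KO 3 and 0.14 ± 0.132 with the melanoma covariate (adjusted p = 0.915).

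Ldha, the A subunit that favours lactate production, was more abundant and changed less. It had 103, 114, 204 and 181 FPKM in WT 1 to 4 and 147, 173, 358 and 218 FPKM in KO 1 to 4, with a slope of 0.25 ± 0.0554 (adjusted p = 0.00851). Its genotype difference was 0.49 ± 0.298 (adjusted p = 0.492), 0.46 ± 0.121 with the block (adjusted p = 0.0447) and 0.20 without KO 3. The share of Ldhb in the pair was 6.61, 6.26, 24.7 and 25.8% in libraries WT 1 to 4, compared for KO 1 to 4 with 18.4, 22.8, 31.9 and 29.7%. It followed the score in all 8 libraries (Pearson r = 0.990 with permutation p = 7.44e-05, 0.000967 adjusted, and Spearman rho = 0.976 with p = 0.000397, 0.00258 adjusted) and in the 6 without WT 1 and WT 2 (r = 0.959, adjusted p = 0.0301). Between genotypes it was 15.8% ± 10.9 for WT against 25.7% ± 6.23 for KO (exact permutation test, p = 0.229, or 0.330 adjusted).

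Ldhb kept a nearly fixed proportion to the melanoma genes. Per 100 CPM of the summed melanoma list it had 2.62, 3.21, 1.91 and 2.10 CPM in WT 1 to 4 and 2.21, 2.35, 2.04 and 2.15 CPM in KO 1 to 4, so that while the melanoma sum ran from 405.4 to 12106.5 CPM the ratio ran from 1.91 to 3.21. Its coefficient of variation was 18.0%, against 82.1% for Ldhb in CPM. The genotypes overlapped (WT 2.46 ± 0.584 and KO 2.19 ± 0.127, p = 0.514 in an exact permutation test of log2 ratios). Vegfa and Car12 were the other members that varied least on this scale, with 63.5% and 50.2%, against 64.2% and 86.8% in plain CPM. For Vegfa the 2 scales were thus almost equal. In plain CPM 36 of 40 members varied least. The Vegfa ratio was 0.913, 0.817, 0.342 and 0.345 CPM in WT 1 to 4 and 0.311, 0.240, 0.219 and 0.258 CPM in KO 1 to 4, with all KO libraries below all WT libraries. Relative to the Kupffer list P4ha1, G6pdx and Tkt were higher in all KO libraries than in all WT libraries, at 0.707 ± 0.0265, 0.718 ± 0.0710 and 1.13 ± 0.148 CPM per 100 CPM in WT and 1.08 ± 0.423, 1.03 ± 0.323 and 2.04 ± 1.07 in KO. These were the 4 of 80 ratio tests with an unadjusted exact permutation p of 0.0286, the smallest possible, and 0 passed after adjustment (adjusted p = 0.336). All 80 tests were on log2 ratios, and the ratios were computed after the data had been seen.

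**Figure D4:**
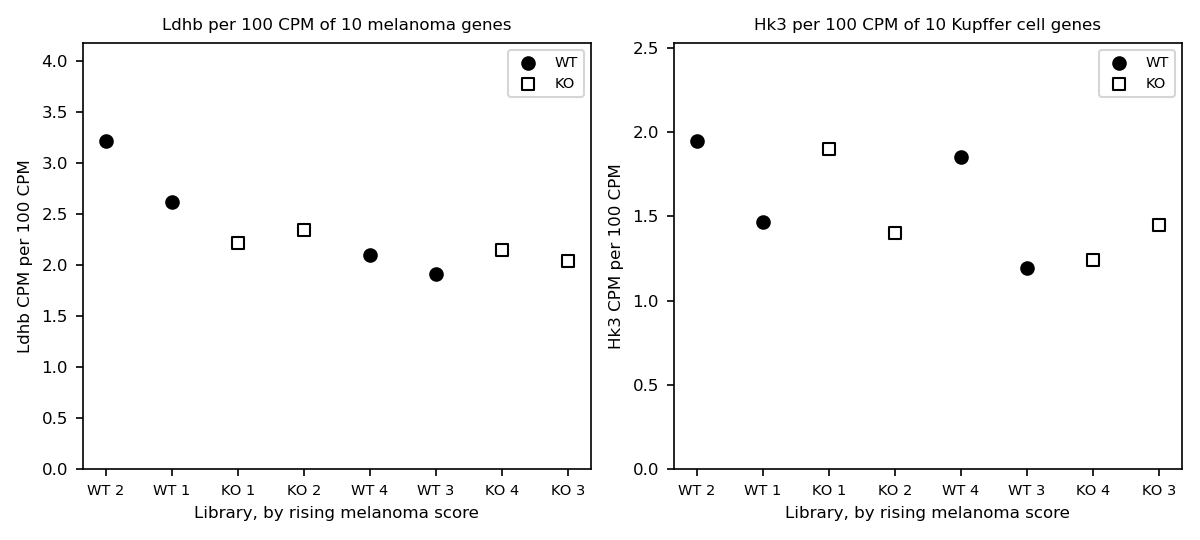
The left panel plots Ldhb CPM per 100 CPM of 10 melanoma genes and the right panel Hk3 CPM per 100 CPM of 10 Kupffer cell genes (vertical axes, from 0), for 8 libraries in order of rising melanoma score. Filled circles are WT and open squares KO; Ldhb stays between 1.91 and 3.21 and Hk3 between 1.19 and 1.95, with the genotypes mixed.

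Lactate leaves or enters cells through MCT1, encoded by Slc16a1, and leaves glycolytic cells through MCT4, encoded by Slc16a3. Slc16a1 had 1.58, 1.70, 5.36 and 4.36 FPKM in WT 1 to 4 and 3.50, 5.86, 11.5 and 7.41 FPKM in KO 1 to 4. All KO libraries were above WT 1 and WT 2, and KO 1 was below WT 3 and WT 4. It was the only member with an unadjusted p under 0.05 between genotypes (log2 fold change 1.05 ± 0.449, edgeR adjusted p = 0.492), and with the block it passed (1.10 ± 0.162, adjusted p = 0.0254). With the melanoma covariate the difference was 0.36 ± 0.177 (adjusted p = 0.756). Slc16a3 had 3.72, 3.62, 6.13 and 6.67 FPKM in WT 1 to 4 and 4.78, 4.58, 10.9 and 6.60 FPKM in KO 1 to 4.

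Both transporters rose with the score (0.44 ± 0.0535 and 0.25 ± 0.0549, adjusted p = 0.000275 and 0.00810). Slc16a1 made up 37.0% ± 7.67 for WT against 50.7% ± 5.94 for KO of their sum (exact permutation test, p = 0.0571, or 0.330 adjusted). Its share was 29.8% and 32.0% in WT 1 and WT 2 and at least 39.53% elsewhere, and its relation to the score (r = 0.819, permutation p = 0.0140, adjusted p = 0.0304) was r = 0.307 without those 2 libraries. Pdk1, the kinase that shuts pyruvate dehydrogenase, and Pdha1, a subunit of that enzyme, did not pass, with 5.72 to 8.76 FPKM and 24.4 to 39.0 FPKM (adjusted p of the slopes 0.106 and 0.471).

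**Figure D5:**
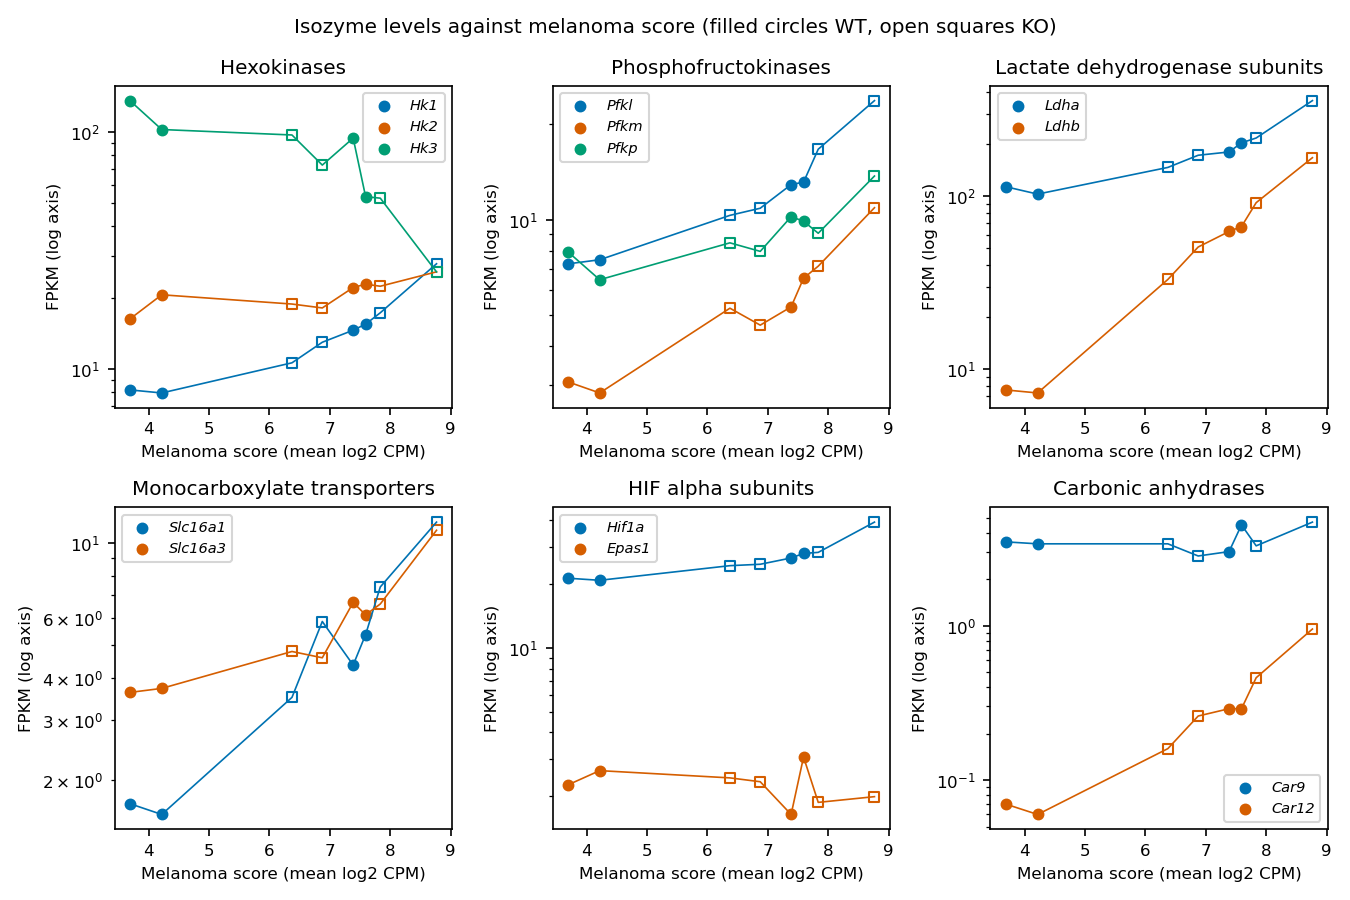
FPKM (log axis) of the members of 6 isozyme families against the melanoma score (mean log2 CPM of 10 genes) in 8 libraries; filled circles are WT, open squares KO, and lines join the libraries in order of score. Hk3 runs down from 136 to 25.7 FPKM while Hk1 runs up, Ldhb approaches Ldha, and Car9 lies between 2.82 and 4.67 FPKM.

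Among the 10 HIF genes 5 rose and 1 fell, all of them targets. Hif1a, the broadly expressed alpha subunit, had 20.9, 21.3, 27.9 and 26.6 FPKM in WT 1 to 4 and 24.5, 24.8, 39.2 and 28.3 FPKM in KO 1 to 4, and its slope did not pass (adjusted p = 0.0803). Epas1, which encodes HIF-2 alpha, had 2.64, 2.26, 3.06 and 1.64 FPKM in WT 1 to 4 and 2.44, 2.34, 1.99 and 1.87 FPKM in KO 1 to 4 and made up 9.13% ± 2.32 for WT against 7.18% ± 2.01 for KO of the pair. The share of Epas1 was lower at higher scores without passing (r = -0.757, permutation p = 0.0328, adjusted p = 0.0532). Egln1, the main oxygen-sensing prolyl hydroxylase, was at 11.02 to 15.8 FPKM, and its slope did not pass (adjusted p = 0.749).

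Vegfa, the angiogenic growth factor, had 0.930, 0.710, 4.39 and 3.77 FPKM in WT 1 to 4 and 1.70, 1.91, 6.59 and 4.05 FPKM in KO 1 to 4. Bnip3, a mitophagy receptor, had 5.96, 4.25, 17.5 and 12.7 FPKM in WT 1 to 4 and 7.12, 8.85, 22.6 and 13.02 FPKM in KO 1 to 4. For both, WT 3 and WT 4 were above KO 1 and KO 2, and KO 3 was highest. They rose with the score (0.66 ± 0.0511 and 0.46 ± 0.0521, adjusted p = 1.16e-05 and 0.000166). With the melanoma covariate both had lower values in KO (-0.47 ± 0.162 and -0.45 ± 0.173, unadjusted p = 0.0165 and 0.0266), which did not pass the adjustment (adjusted p = 0.544 and 0.614).

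The remaining targets were low, apart from P4ha1. Egln3, an inducible prolyl hydroxylase, had 0.740 to 2.21 FPKM, Ndrg1, a stress-response gene, 1.46 to 5.15 FPKM, and Car12, a membrane carbonic anhydrase, 0.0600, 0.0700, 0.290 and 0.290 FPKM in WT 1 to 4 and 0.160, 0.260, 0.950 and 0.460 FPKM in KO 1 to 4. All 3 rose (0.30 ± 0.0929, 0.29 ± 0.0504 and 0.68 ± 0.108, adjusted p = 0.0325, 0.00233 and 0.00139). Between genotypes Car12 was at 1.29 ± 0.676 (adjusted p = 0.492), 1.31 ± 0.318 with the block (adjusted p = 0.0373) and 0.68 without KO 3. Car9, a classical hypoxia marker, stayed at 2.82 to 4.67 FPKM (adjusted p of the slope 0.711). The share of Car12 in the carbonic anhydrase pair went from 1.74% in WT 1 to 16.9% in KO 3 (r = 0.878, permutation p = 0.00486, adjusted p = 0.0211; r = 0.884 without WT 1 and WT 2, adjusted p = 0.0767).

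P4ha1, a collagen prolyl hydroxylase subunit and known HIF target, went against the others. It had 45.7, 45.3, 27.1 and 31.6 FPKM in WT 1 to 4 and 45.9, 38.3, 27.1 and 30.3 FPKM in KO 1 to 4, and fell along the score by 0.25 ± 0.0380 per unit on the log2 scale (adjusted p = 0.00106). WT 1, WT 2 and KO 1 were highest, and WT 3 and KO 3 were lowest. Between genotypes it was -0.18 ± 0.266 (adjusted p = 0.718; -0.36 to -0.043 with 1 library left out) and 0.28 ± 0.124 with the melanoma covariate (adjusted p = 0.701).

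Of the 4 pentose phosphate members 3 fell along the score. Taldo1, transaldolase, had 166, 176, 131 and 157 FPKM in WT 1 to 4 and 149, 155, 98.6 and 145 FPKM in KO 1 to 4. G6pdx, which catalyses the entry step, had 60.7, 55.3, 35.7 and 49.7 FPKM in WT 1 to 4 and 52.3, 53.6, 32.2 and 45.5 FPKM in KO 1 to 4. In both KO 3 was lowest, and WT 3 was the lowest WT library. Taldo1, G6pdx and Pgd, the second dehydrogenase, fell along the score by 0.15 ± 0.0453, 0.21 ± 0.0487 and 0.12 ± 0.0391 (adjusted p = 0.0280, 0.0110 and 0.0440). Tkt, transketolase, stayed at 26.7 to 39.7 FPKM and did not pass (adjusted p of the slope 0.0709). The number of members that fell, 5 in all, was 2 without WT 3 and 3 without WT 1, WT 2, KO 1 or KO 2, each left out singly. Over all genes, slope calls in either direction went from 35.6% to 21.9% without WT 3. Without WT 1, WT 2, KO 1 and KO 2 they were 27.3%, 29%, 24.3% and 27.4%.

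Of the 13 isozyme shares, 0 differed between genotypes, and none had an unadjusted p under 0.05. The smallest p that 4 against 4 libraries allow is 0.0286. With libraries paired by number, the shares of Slc16a1, Ldhb and Car12 were higher and those of Hk3, Pfkp and Aldoc lower in KO in all 4 pairs (exact sign-flip permutation p = 0.125, the smallest that 4 pairs allow; 0.271 adjusted). Along the score 7 of 13 passed in Pearson's test with adjustment over the 13, namely Hk2, Pfkl, Ldhb, Slc16a1 and Car12, which increased, and Hk3 and Pfkp, which decreased. Over the 6 libraries without WT 1 and WT 2 it was Hk2, Hk3 and Ldhb. The shares of Hk2 and Hk3 are parts of the same total, and so are those of Pfkl and Pfkp. Such shares are not independent of each other.

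Genes of the same pathways outside the 40 members gave 0 calls between genotypes in edgeR. At an unadjusted p under 0.05 Eno3 and P4ha2 were higher in KO, and Slc2a9, Fbp1, Pdk2, Bnip3l, H6pd and Shpk were lower. These were 2 of 16 tested genes of glycolysis and glucose uptake, 1 of 5 hepatocyte glucose genes and 1 of 12 of pyruvate fate. The others were 2 of 17 HIF genes and 2 of 7 pentose phosphate genes. Over all tested genes it was 8.78% (4.23% higher and 4.56% lower). Of 16 other tested genes of glycolysis and glucose uptake, 6 rose with the score and 1 fell. Pgm1, a phosphoglucomutase, rose by 0.32 ± 0.0525, Bpgm by 0.34 ± 0.0575 and Tigar, a fructose bisphosphatase, by 0.31 ± 0.0478, while Slc2a9, a urate transporter of the glucose transporter family, fell (-0.18 ± 0.0589). Of 17 other HIF genes 3 rose and 2 fell, shares no larger than the 21.0% and 14.5% of all genes, the steepest being Plod2, a lysyl hydroxylase, with 0.90 ± 0.0312 (adjusted p = 1.22e-07). Of 12 other genes of pyruvate fate 3 rose and 1, the transporter gene Slc16a7, fell (-0.31 ± 0.0655), also near those shares. None of 7 other pentose phosphate genes passed along the score. The closest were Prps1 (0.14 ± 0.0490) and Rpia (-0.11 ± 0.0406), with edgeR adjusted p = 0.0528 and 0.0591. With the block Pgm1, Bpgm, Eno3, Tigar and Plod2 were higher in KO (0.57 ± 0.117, 0.56 ± 0.132, 0.55 ± 0.112, 0.68 ± 0.129 and 1.57 ± 0.356, adjusted p = 0.0287, 0.0357, 0.0281, 0.0257 and 0.0330). Slc2a9 and Slc16a7 were lower (-0.80 ± 0.151 and -0.59 ± 0.141, adjusted p = 0.0257 and 0.0360), and 2 pentose phosphate genes, Shpk and H6pd, were lower (-0.78 ± 0.175 and -0.47 ± 0.126, adjusted p = 0.0318 and 0.0479). Over all tested genes the block called 8.98% higher and 5.01% lower. Without pair 1, 2 and 3 it called 1.29%, 0.0126% and 0.00627% in either direction.

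Genes of hepatocyte glucose metabolism were measured as well. Of 5 tested hepatocyte glucose genes 3 rose with the score, among them the gluconeogenic Pck1 (0.74 ± 0.121, adjusted p = 0.00173). The 8 hepatocyte markers, all detected in every library, summed to 1755 CPM in WT 3 and to 157 to 662 CPM in the other libraries. Neutrophil markers (44.9 to 103 CPM, with Ly6g at 0 in some libraries) and monocyte markers (180.1 to 266 CPM) overlapped between genotypes (exact permutation p = 0.943 and 0.629). Immediate early genes, which respond to tissue handling, summed to 3094 to 4822 CPM in WT and 1552 to 3206 CPM in KO (p = 0.0571, exact permutation test). Stellate cell and fibroblast markers were lower in KO, at 42.4 to 58.3 CPM against 75.2 to 196 CPM (exact permutation p = 0.0286, the smallest possible, not adjusted over the marker lists). T cell markers were at 25.4 to 130.1 CPM, sinusoidal endothelial markers at 195 to 586 CPM, and erythroid markers, 5 of 6 of them detected in every library, at 4.72 to 31.6 CPM. The part of these lists in the results on members was not tested.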

How the data were processed

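Bulk RNA-seq of 8 libraries was analysed, 4 WT and 4 KO. Per the file headers, raw counts and FPKM of each gene were deposited by the authors. HTSeq 0.6.1 and mm10 are named in the submitters' processing notes. Aligner, strandedness and gene models: not given in the sources used here. Overlapping genes on opposite strands cannot therefore be told apart. The deposited FPKM equalled count per exonic size and column total within 0.015 for 100% of values. Only 1472 of the 52073 genes also present in GENCODE M21 (GRCm38) lay at an equal position, so positions are printed as deposited, without a build. Column letter K was read as KO and C as the WT control; 0 columns were left unmapped.

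Genes were kept by filterByExpr and scaled by TMM, and KO was compared with WT over all 15870 tested genes in edgeR 4.0.16 (R 4.3.3, quasi-likelihood F test, 2-sided, Benjamini-Hochberg, threshold 0.05). SEs were derived from unshrunken coefficients and F statistics. The slope on the melanoma score (mean log2 CPM, prior count 2) was fitted with the genotype in the same way. Isozyme shares are percent of family FPKM, a value computed from the deposited FPKM. They therefore depend on the deposited exonic size of each gene. They were tested by exact permutation over 70 splits, and against the score over all 40320 pairings. Values are means ± SD over n = 4, and levels are deposited FPKM. Intervals for counting error were not needed; a count of 0 allows 3 counts, 0.154 to 0.197 CPM. Scripts were tested on simulated data.

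The members and lists were chosen with earlier results of these data known. Every member of an isozyme family and, per role, the most abundant member and those with the smallest p are described with their values; log2 fold changes between genotypes are given mainly for the 16 members that passed with the block or had an unadjusted p under 0.05 with the melanoma covariate. The symbol Ero1l of the HIF list is not used here, and Pklr, Hif3a and Lox did not pass the filter. Some genes of the lists are not reported here. Both genotypes are numbered 1 to 4 in the labels. Across genes, deviations of equal numbers from their genotype mean correlated at 0.561, 0.544, 0.660 and 0.290, all above 0.1, which was read as pairing of the libraries, and blocked values are given where they change a call. The pairing comes from these values and not from the labels. Unequal numbers were not compared, so these correlations cannot tell pairs from libraries that lie alike within their genotypes. In both genotypes libraries 1 and 2 had lower melanoma scores than libraries 3 and 4. The part of this order was not tested. All library pairs within a genotype differed by more than sampling noise (chi-square per degree of freedom at least 10). Alternatives were another normalization (RLE), DESeq2 1.42.0, limma 3.58.1 on log2(FPKM + 1) or log2(FPKM + 0.1), no filter, the block, the melanoma covariate, other scores, shares of counts and leaving out libraries.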

Additional observations from a re-analysis of the deposited data

Results flagged for a closer look

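Of 106 groups of 4 libraries checked (40 members and 13 isozyme shares in each genotype), 6 held a value whose gap to the nearest other value was too wide for the range of its group by Dixon's criterion, where chance gives about 1 in 20. KO 3 was the library in 3 of them, and no explanation was weighed. Eno2 was at 0.580 FPKM in KO 3, against 0.300 to 0.330 FPKM in the other KO libraries. Egln1 was at 15.8 FPKM in KO 3, against 13.2 to 13.3 FPKM. Pgd was at 39.2 FPKM in KO 3, against 50.8 to 51.6 FPKM. Egln1 was also high in WT 4, at 13.9 FPKM against 11.02 to 11.5 FPKM in the other WT libraries. Pdha1 was at 28.9 FPKM in WT 3, against 24.4 to 25.1 FPKM. Pfkl made up 39.7% of phosphofructokinase FPKM in WT 2, against 44.4% to 45.4% in the other WT libraries.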

How the results depend on the processing

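Between genotypes 0 of 40 members passed in every alternative without the replicate block, leaving out any 1 library included. With the replicate block 13 passed (12 higher, 1 lower), without pair 1 only 1 (1 lower), without pairs 2 or 3 none, and without pair 4 14 (13 higher, 1 lower), beside 14.0%, 1.29%, 0.0126%, 0.00627% and 14.0% of all genes. DESeq2 called 66 genes in all and 0 members. With the melanoma covariate the log2 fold change turned to -0.0071 for Hk1, -0.039 for Tpi1, -0.0037 for Pgk1, -0.47 for Vegfa, -0.45 for Bnip3 and 0.28 for P4ha1. Without WT 1, WT 2 and KO 3, left out after seeing the data, the median of members turned to -0.076, Hk1 to -0.15, Hk3 to 0.022, Pfkl to -0.050, Pfkm to -0.063, Tpi1 to -0.25, Gapdh to -0.068, Pgk1 to -0.25, Pgam1 to -0.11, Eno1 to -0.081, Ldha to -0.10, Ldhb to -0.16, Vegfa to -0.69, Bnip3 to -0.65, Car12 to -0.011 and P4ha1 to 0.39. Leaving out 1 library gave Bnip3 a range of -0.10 (without KO 3) to 0.65. On the score 26 slopes passed, beside 35.6% of all genes. In the replicate block 1 passed (1 rising, 0 falling), beside 1.04% of all genes, and Hk3, Gpi1 and Pfkl turned to 0.054, -0.020 and -0.010. With WT 1, WT 2 and KO 3 left out there were 14 (13 rising, 1 falling), beside 12% of all genes, and Eno2 turned to -0.075. Leaving out 1 library gave 19 to 21 rising and 2 to 5 falling, beside calls in 21.9% to 33.7% of all genes. Without WT 1 and WT 2, r of the share with the score was 0.742 for Slc2a1 (-0.384 in all), 0.724 for Pfkl, -0.756 for Pfkp, 0.307 for Slc16a1 and 0.884 for Car12, none passing. Leaving out 1 library gave the Egln3 share, KO minus WT, a range of -2.27 to 0.026 percentage points. With the log2 sum as score Epas1 passed (r = -0.764). Where a value changed, the cause was not tested. For named genes outside the members only the block, covariate and slope fits are given. Car12, Eno2 and Egln3 are low, so their values carry the most counting error.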
